A study of Homo sapiens with 6 samples.

Results

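The genes described here are the NF-kB transcription factor subunits NFKB1, NFKB2, RELA, RELB and REL, the inhibitors NFKBIA, NFKBIB, NFKBIE and TNFAIP3, and the kinase IKBKE. They were chosen by name, as the rows of the count table that carry these symbols, which gave 10 of the 33451 genes listed. All 10 passed the low-count filter and were among the 18183 genes tested. The RNA came from MDA-MB-453, an established human breast cancer cell line. The cells were cultured for 5 days with 25(OH)D, the circulating precursor of active vitamin D, at 100 nM, or with the alcohol used as its solvent (control), and 3 mRNA libraries were sequenced in each group. Both groups were the same line in the same medium with serum, so the agent was the difference between them that the labels give.

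NF-kB is a dimer of REL-homology proteins that is held in the cytoplasm by IkB proteins. When a cytokine or stress receptor is engaged, the IKK kinases phosphorylate IkB, IkB is degraded, and the dimer enters the nucleus and binds kappaB sites. Several of its target genes encode its own inhibitors, and in breast cancer cells the pathway is studied for its part in survival and inflammation.

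The libraries held 33268860 to 40928176 counts assigned to genes, and a floor of 3 counts corresponded to 0.0720 to 0.0921 CPM (counts scaled to library size). CPM was computed on the library totals over the genes that passed the low-count filter, after multiplication by edgeR's TMM factors. The treatment was seen in TRPV6, a vitamin D responsive calcium channel gene, which went from 71.6 ± 1.63 CPM (SD, n = 3) in control to 792 ± 13.3 CPM (SD, n = 3) in 25(OH)D, and in VDR, the vitamin D receptor, which went from 80.8 ± 0.739 to 133.5 ± 6.16 CPM (SD, n = 3 each). The line was checked against its labelled type with 12 luminal and apocrine epithelial genes, of which 10 were tested, with summed levels of 11540 to 11859 CPM in control and 9378 to 9549 CPM in 25(OH)D, while ESR1 and PGR were at or below 0.208 CPM. Summed basal markers stayed between 0.576 and 1.39 CPM over all libraries and endothelial markers between 0.104 and 0.489 CPM. Summed immune markers were 4.52 to 6.05 CPM in control and 13.5 to 19.5 CPM in 25(OH)D, nearly all of it CD68, with PTPRC, CD3E and CD14 at or below 0.208 CPM. Fibroblast markers summed to 36.5 to 39.0 CPM in control and 31.97 to 34.7 CPM in 25(OH)D. Nearly all of this was COL1A1, with COL1A2, DCN, LUM and PDGFRB at or below 0.435 CPM. The mitochondrial share of counts was 7.85% to 7.99% in control and 8.89% to 9.24% in 25(OH)D, and its part in the results was not tested.

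In 25(OH)D the transcript of NFKBIA, the gene of IkB-alpha, was 4.71-fold higher than in control, and NFKB2, NFKBIB and REL were higher by smaller steps. IKBKE was lower. NFKB1, RELA, RELB, NFKBIE and TNFAIP3 did not pass the test. Thus 5 of the 10 members had an adjusted p under 0.05 in edgeR's quasi-likelihood test, against 33.8% of all 18183 genes tested. Of these, 4 were higher, against 17.3% of all genes, and 1 was lower, against 16.5% of all genes. The median log2 fold change was 0.16 over the 10 members and -0.011 over all genes tested. For 6 members no control library overlapped the range of the 25(OH)D libraries in CPM, against 45.7% of all genes. When a change beyond 1 on the log2 scale in either direction was required together with an unadjusted p under 0.05, 1 member (NFKBIA) passed, against 6.65% of all genes.

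**Figure D1:**
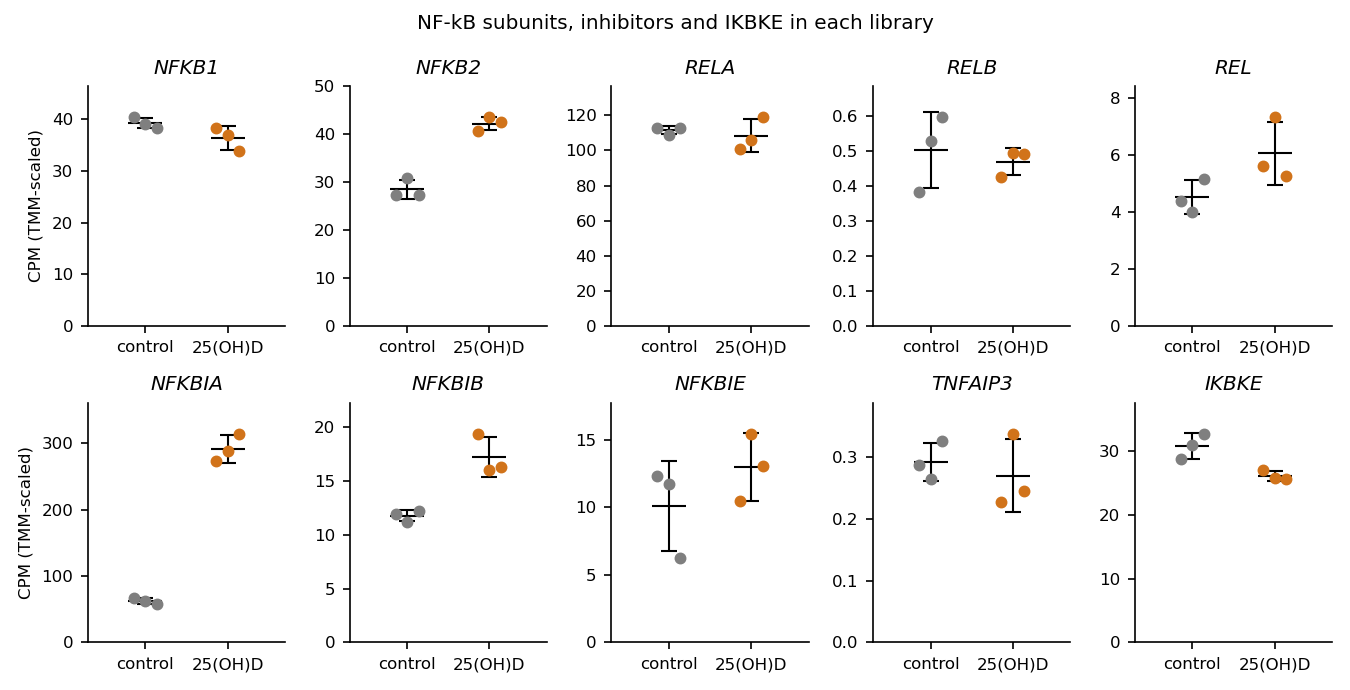
Level of each member in CPM (TMM-scaled, linear axes from 0), with points for the 3 control and 3 25(OH)D libraries, a bar at the mean and error bars of 1 SD. NFKBIA lies between 57.1 and 66.7 CPM in control and between 272 and 314 CPM in 25(OH)D, while RELA overlaps between the groups.

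NFKBIA encodes IkB-alpha, the inhibitor that binds RELA-containing dimers and that NF-kB itself induces. Its counts were 2776, 2343 and 2104 in control and 9577, 11074 and 10232 in 25(OH)D. In CPM these were 66.7, 61.9 and 57.1 in control and 272, 288 and 314 in 25(OH)D. Every 25(OH)D library lay far above every control library. The means were 61.9 ± 4.76 and 291 ± 21.0 CPM (SD, n = 3 each), and the log2 fold change was 2.23 (SE 0.0625, 95% interval 2.10 to 2.37, adjusted p = 2.29e-12, edgeR). By p-value NFKBIA was number 55 of the 18183 genes, and by log2 fold change it was the 221st highest. The control mean of NFKBIA, 61.9 CPM, was then set as a limit on the mean over all 6 libraries. Among the 3123 genes that reached it NFKBIA was number 17 by log2 fold change. A gene could enter this set through its 25(OH)D level. No exon base of NFKBIA was shared with another gene in the annotation used.

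The upstream sequence of NFKBIA is shown because it holds a match to the NF-kB consensus (kappaB) motif, and NFKBIA had the largest fold change of the 10 members. The 150 bases before the RefSeq start, on the minus strand of GRCh38.p14 at chr14:35404750-35404899, hold the match at positions -81 to -72, given in capitals.
NFKBIA: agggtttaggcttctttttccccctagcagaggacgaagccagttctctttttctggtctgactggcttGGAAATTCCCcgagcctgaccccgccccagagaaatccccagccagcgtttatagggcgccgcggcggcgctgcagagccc

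The other inhibitors were less abundant. NFKBIB, the gene of IkB-beta, had 495, 424 and 451 counts in control and 681, 616 and 530 in 25(OH)D. Its CPM values were 11.9, 11.2 and 12.2 in control and 19.4, 16.02 and 16.3 in 25(OH)D, and the groups did not overlap. The log2 fold change was 0.55 (SE 0.0925, 95% interval 0.35 to 0.75, adjusted p = 3.39e-04, edgeR). NFKBIB shared 40 exon bases on the opposite strand with SIRT2, whose log2 fold change was 0.0039.

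NFKBIE, the gene of IkB-epsilon, had 12.3, 11.7 and 6.27 CPM in control and 10.4, 15.4 and 13.04 CPM in 25(OH)D. The groups overlapped, and control replicate 3, with 231 counts, lay below the other libraries of its group. The log2 fold change was 0.36 (SE 0.200, 95% interval -0.073 to 0.79, adjusted p = 0.195, edgeR), and without control replicate 3 it was 0.12 (adjusted p = 0.574, edgeR). Fitted with no low-count filter, its adjusted p was 0.00500 in edgeR.

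TNFAIP3 encodes A20, a ubiquitin-editing enzyme that shuts off signalling to IKK and is a widely used read-out of NF-kB activity. It had 12, 10 and 12 counts in control and 8, 13 and 8 counts in 25(OH)D, which is 0.293 ± 0.0310 and 0.270 ± 0.0593 CPM (SD, n = 3 each). The groups overlapped. The log2 fold change was -0.10 (SE 0.467, 95% interval -1.11 to 0.90, adjusted p = 0.888, edgeR), and a difference within that interval was not detectable at this depth.

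Among the subunits, NFKB2 moved most. It encodes p100, which is processed to p52 in the non-canonical branch of the pathway. NFKB2 had 27.4, 30.8 and 27.3 CPM in control and 40.7, 43.5 and 42.5 CPM in 25(OH)D, with no overlap between the groups. The means were 28.5 ± 1.99 and 42.2 ± 1.44 CPM (SD, n = 3 each). NFKB2 had a log2 fold change of 0.57 (SE 0.0654, 95% interval 0.43 to 0.71, adjusted p = 9.99e-06, edgeR).

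REL, which encodes c-Rel, had 182, 151 and 190 counts in control and 197, 281 and 171 counts in 25(OH)D. The CPM values were 4.37, 3.99 and 5.16 in control and 5.60, 7.31 and 5.25 in 25(OH)D, so the groups were separated by a narrow gap. In RPKM, which divides by the library totals alone, the highest control value of 0.463 exceeded the lowest 25(OH)D value of 0.457. The log2 fold change was 0.43 (SE 0.155, 95% interval 0.096 to 0.76, adjusted p = 0.0464, edgeR). The call was lost without 25(OH)D replicate 2 (adjusted p = 0.231, edgeR), control replicate 2 (0.160), control replicate 1 (0.0980) or 25(OH)D replicate 1 (0.0565). Of the 11255 exon bases of REL, 5702 (50.7%) were shared on the same strand with RP11-373L24.1 (log2 fold change 0.64). Counts of these 2 genes cannot be fully told apart.

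NFKB1 encodes p105, the precursor of p50, and RELA encodes p65, the main activating subunit. NFKB1 had 40.4, 39.2 and 38.4 CPM in control and 38.3, 37.0 and 33.9 CPM in 25(OH)D. The groups were adjacent without overlap, and the log2 fold change was -0.11 (SE 0.0621, 95% interval -0.24 to 0.023, adjusted p = 0.197, edgeR). RELA had 113, 109 and 113 CPM in control and 101, 106 and 119 CPM in 25(OH)D, with overlapping groups. Its log2 fold change was -0.041 (SE 0.0562, 95% interval -0.16 to 0.080, adjusted p = 0.625, edgeR).

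RELB, the usual partner of p52, was near the limit of detection, with 16, 20 and 22 counts in control and 15, 19 and 16 counts in 25(OH)D. The groups overlapped, and the log2 fold change was -0.091 (SE 0.388, 95% interval -0.93 to 0.74, adjusted p = 0.884, edgeR). The median log2 fold change was -0.041 over the 5 subunits and 0.45 over the 4 inhibitors.

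IKBKE encodes IKK-epsilon, an IKK-related kinase that is amplified in some breast cancers. It had 28.8, 30.9 and 32.8 CPM in control and 27.0, 25.8 and 25.6 CPM in 25(OH)D, with no overlap. The log2 fold change was -0.24 (SE 0.0675, 95% interval -0.38 to -0.092, adjusted p = 0.0139, edgeR). The call was lost without control replicate 3 (adjusted p = 0.0759, edgeR), 25(OH)D replicate 2 (0.0610) or control replicate 2 (0.0525). IKBKE shared 156 of its 3791 exon bases on the opposite strand with C1orf147.

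**Figure D2:**
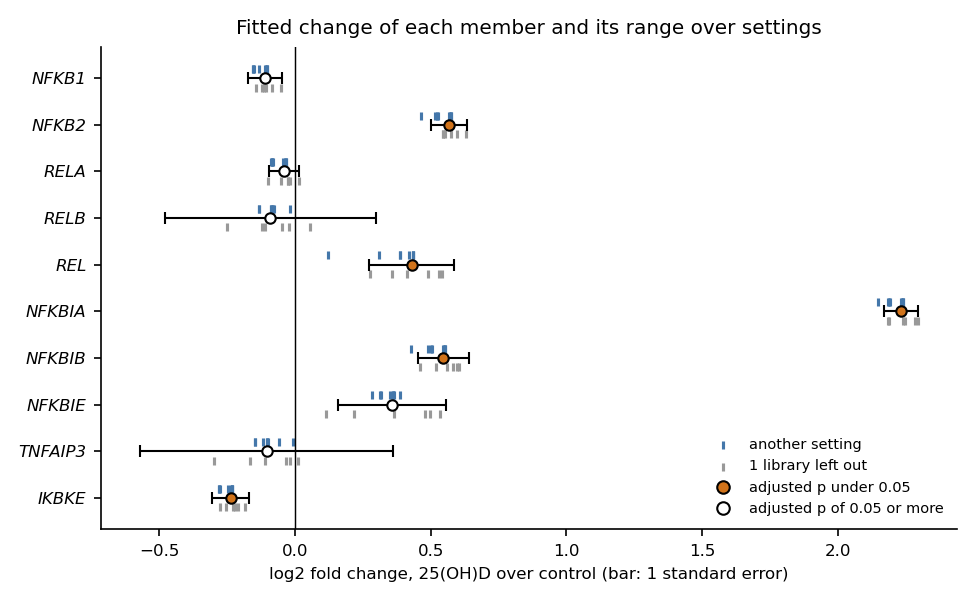
Log2 fold change of each member, 25(OH)D over control, from edgeR, with bars of 1 standard error, filled circles for an adjusted p under 0.05, blue ticks for the other settings and grey ticks for fits that leave out 1 library. NFKBIA lies at 2.23 with ticks from 2.15 to 2.30, and RELB and TNFAIP3, with at most 22 counts in a library, have the widest bars (0.388 and 0.467).

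For comparison between genes, levels were divided by gene length (RPKM). In control the order of mean RPKM was NFKBIA (26.5), RELA (20.7), IKBKE (8.25), NFKB2 (6.45), NFKB1 (6.38), NFKBIB (5.14), NFKBIE (3.98), REL (0.406), RELB (0.168) and TNFAIP3 (0.0588). NFKB2 and NFKB1 overlapped between libraries and cannot be ordered. In 25(OH)D the order was NFKBIA (121), RELA (19.5), NFKB2 (9.27), NFKBIB (7.29), IKBKE (6.79), NFKB1 (5.73), NFKBIE (4.95), REL (0.530), RELB (0.153) and TNFAIP3 (0.0527). Here NFKBIB overlapped with IKBKE, and NFKB1 with NFKBIE. NFKB2 thus stood level with NFKB1 in control and above it in every 25(OH)D library.

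**Figure D3:**
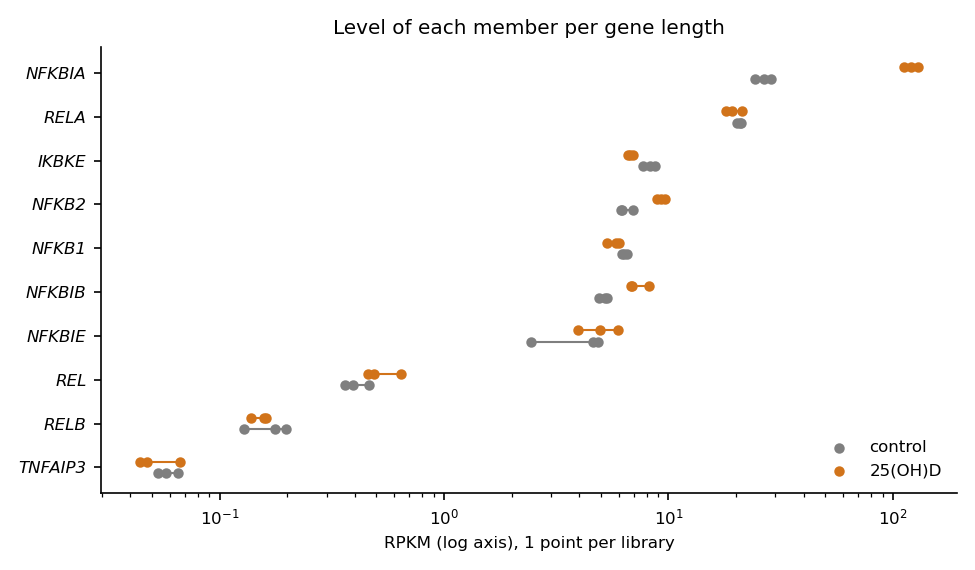
Level of each member in RPKM on a log axis, with the members in the order of their control means and a point for each library, joined by a line within a group. NFKBIA and RELA hold the top places in both groups, and REL, RELB and TNFAIP3 lie below 1 RPKM in every library.

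Ratios within a library do not depend on the scaling between libraries and are given as a description. NFKBIA over RELA was 1.36, 1.31 and 1.16 in control and 6.23, 6.26 and 6.08 in 25(OH)D. The 3 IkB genes (NFKBIA, NFKBIB and NFKBIE) summed to 35.6 ± 3.32 RPKM in control and 133 ± 8.31 RPKM in 25(OH)D (SD, n = 3 each), while the 5 subunits summed to 34.1 ± 0.244 and 35.2 ± 1.48 RPKM. The ratio of these sums went from 1.04 ± 0.0899 to 3.78 ± 0.0845 (SD, n = 3 each). NFKBIA made up 74.4% of the IkB sum in control and 90.8% in 25(OH)D, and RELA made up 60.7% and 55.4% of the subunit sum. NFKB2 over NFKB1 was 0.946, 1.10 and 0.993 in control and 1.48, 1.64 and 1.75 in 25(OH)D, with no overlap. These are ratios of mRNA levels and say nothing of the proteins.

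**Figure D4:**
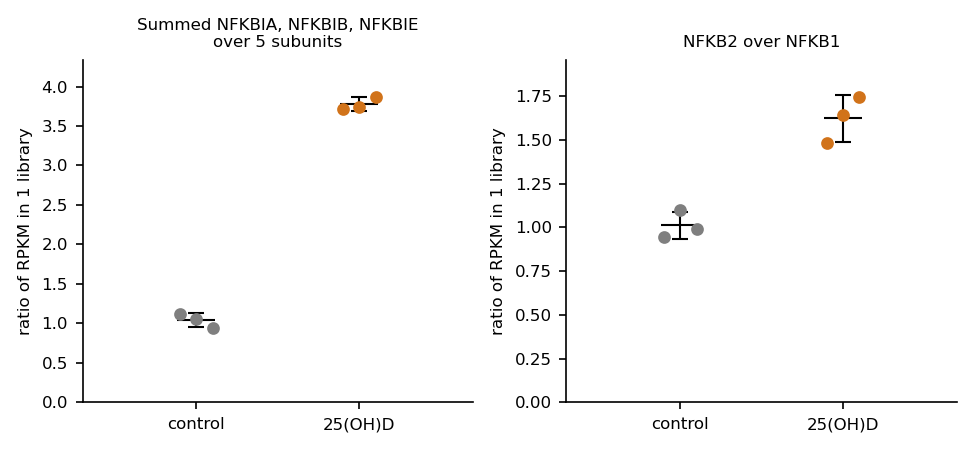
RPKM ratios within each library (no unit, linear axes from 0), for the summed NFKBIA, NFKBIB and NFKBIE over the 5 subunits (left) and for NFKB2 over NFKB1 (right), with points for the 3 control and 3 25(OH)D libraries and the mean with 1 SD. The left ratio lies between 0.947 and 1.13 in control and between 3.71 and 3.87 in 25(OH)D, and the right ratio between 0.946 and 1.10 and between 1.48 and 1.75.

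Promoter windows of 8 members were found in the RefSeq table (GRCh38.p14), 13 windows in all, each from 250 bases before to 50 bases after a start. The kappaB motif, a pattern of 10 bases searched by its consensus on both strands, was in 7 of these 13 windows, against 7.73% of all 35116 windows. The windows with a match belonged to 6 of the 8 genes, with no share over all genes to set beside that count. These genes were NFKB1, NFKB2, REL, NFKBIA, NFKBIB and TNFAIP3. Of the genes with a match, NFKB2, REL, NFKBIA and NFKBIB were called higher and NFKB1 and TNFAIP3 were not called. The windows of RELA and IKBKE held no match, which says only that the pattern is not in them. The DR3 vitamin D response element was in 0 of the 13 windows, against 0.0740% of all windows. A pattern this rare is seldom met in 13 windows, so its absence says only that the pattern is not in them. Stretches with matches in capitals are shown so that called and uncalled members can be compared. They lie on the plus strand at chr4:102501300-102501329 (NFKB1), chr2:60881518-60881547 (REL), chr10:102394461-102394490 and chr10:102395674-102395703 (NFKB2, of different starts), chr19:38899931-38899960 (NFKBIB) and chr6:137867188-137867217 (TNFAIP3).
NFKB1: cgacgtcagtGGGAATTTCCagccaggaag
REL: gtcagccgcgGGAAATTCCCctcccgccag
NFKB2, first start: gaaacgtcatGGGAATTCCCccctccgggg
NFKB2, other start: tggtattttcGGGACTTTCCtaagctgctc
NFKBIB: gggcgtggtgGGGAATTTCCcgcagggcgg
TNFAIP3: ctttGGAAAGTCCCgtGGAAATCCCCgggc
The stretch of TNFAIP3 holds 2 matches, and TNFAIP3 is the least abundant of the members. NFKB2 and NFKBIB, both called higher, have further matches that are not printed. For NFKB2 these lie at positions -78 to -69 from the first start and -176 to -167 from the other start. For NFKBIB the further match lies at positions 39 to 48, after the start. The printed stretches therefore do not give the number of matches per gene.

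The rest of the pathway was described by 5 lists with 123 genes, of which 121 were listed and 82 tested. Of the 82, 18 (21.95%) were higher, 14 (17.1%) were lower and 50 were not called, with a median log2 fold change of 0.026. These shares stand beside 17.3% and 16.5% of all genes.

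Of the other IkB-family proteins and nuclear regulators, 8 of 9 were tested. In edgeR 0 were higher and 1 (12.5%) was lower, against 17.3% and 16.5% of all genes. At an unadjusted p under 0.05 the counts were 1 and 1, with no share over all genes to set beside them. DESeq2 called 1 and 1 of the list, against 3138 higher and 2841 lower of all 18183 genes. The lower gene was NKRF, a repressor of NF-kB target promoters, at 16.1 ± 2.21 CPM in control and 11.9 ± 1.44 CPM in 25(OH)D (log2 fold change -0.44, SE 0.113, adjusted p = 0.00752, edgeR), and it shared 956 exon bases on the opposite strand with UBE2A. NFKBIZ and BCL3, nuclear IkB proteins, had log2 fold changes of -0.21 and 0.18 and were not called.

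The 16 genes of the IKK complex and its upstream kinases were all tested. Of these, 4 (25%) were higher and 2 (12.5%) lower, against 17.3% and 16.5% of all genes. Their median log2 fold change was 0.090, and DESeq2 also called 4 higher and 2 lower. IKBKG, which encodes NEMO, the regulatory subunit of IKK, was among the higher genes, but its counts are uncertain where gene models overlap and its values are not described. The catalytic subunit gene IKBKB was lower by a small step, with 77.4 ± 2.58 CPM in control and 69.0 ± 1.57 CPM in 25(OH)D (log2 fold change -0.17, adjusted p = 0.0159, edgeR). TBK1, the kinase most like IKBKE, which shares 702 exon bases on the opposite strand with RP11-114F3.4, was higher (log2 fold change 0.17, adjusted p = 0.0113, edgeR), and TAB1, a TAK1 partner, was lower (-0.19, adjusted p = 0.0360, edgeR). Leaving out 1 library ended each of these 3 small calls, which were lost for IKBKB without control replicate 3 or 25(OH)D replicate 1 or 2 (log2 fold change -0.13 to -0.16), for TBK1 without control replicate 2 (0.17) and for TAB1 without any library but control replicate 2 (-0.14 to -0.21). The other 2 higher genes were BTRC (0.25) and FBXW11 (0.30), which encode the F-box proteins that mark phosphorylated IkB for degradation, named here after their values were seen.

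Of 22 receptors, 10 were tested, 4 (40%) were higher and 1 (10%) was lower, against 17.3% and 16.5% of all genes. DESeq2 called 3 receptors higher and 1 lower. The 12 that were not tested included CD40 and NGFR, which have no row in the table used. IL1R1, the signalling receptor of interleukin-1, had 16490, 15059 and 14046 counts in control and 4491, 5043 and 4385 counts in 25(OH)D. The groups were far apart, at 392 ± 9.06 and 131 ± 3.41 CPM (SD, n = 3 each), and the log2 fold change was -1.58 (SE 0.0390, adjusted p = 6.56e-13, edgeR). TNFRSF12A, the receptor of TWEAK, which signals to the non-canonical branch, went from 15.5 ± 0.638 to 25.0 ± 0.784 CPM (log2 fold change 0.69, adjusted p = 2.92e-06, edgeR). IL17RA was higher by 0.38 on the log2 scale (adjusted p = 1.49e-04, edgeR). TNFRSF11A (1.60) and IL1RAP (0.36) were the other higher receptors, named after their values were seen.

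Of 36 adaptors, ubiquitin ligases and deubiquitinases, 34 were tested. In edgeR 8 (23.5%) were higher and 6 (17.6%) lower, against 17.3% and 16.5% of all genes, and DESeq2 also called 8 and 6. TRAF5, an adaptor of TNF-family receptors, fell from 879, 844 and 854 counts in control to 167, 183 and 156 counts in 25(OH)D. The level was 22.2 ± 1.05 CPM in control and 4.77 ± 0.0192 CPM in 25(OH)D (SD, n = 3 each). TRAF5 thus had a log2 fold change of -2.22 (SE 0.0875, adjusted p = 1.04e-10, edgeR). TRAF1, itself an NF-kB target, was lower, at 3.91 ± 0.335 CPM in control and 1.54 ± 0.198 CPM in 25(OH)D (log2 fold change -1.35, adjusted p = 4.41e-05, edgeR). RIPK2, the kinase downstream of NOD receptors, was higher (0.77, adjusted p = 1.43e-06, edgeR), and so was TAX1BP1, an A20 cofactor (0.33, adjusted p = 1.06e-05, edgeR).

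Of 40 target genes, 14 were tested, 2 (14.3%) were higher and 4 (28.6%) lower, with a median log2 fold change of -0.25. Over all genes tested the shares were 17.3% and 16.5%, and DESeq2 called 1 target higher and 4 lower. The 26 that were not tested had at most 13 counts in any library, and 10 cytokine and chemokine genes (CXCL1, CXCL2, CXCL3, CCL2, CCL20, IL6, IL1A, IL1B, TNF and CSF2) had at most 6. CFLAR, which encodes the caspase-8 inhibitor c-FLIP, went from 81.3 ± 1.92 to 133 ± 3.49 CPM (log2 fold change 0.71, adjusted p = 1.31e-08, edgeR). CFLAR shares exon bases with CFLAR-AS1 (log2 fold change 0.75), AC007283.5 (0.58, on the same strand) and IMPDH1P10 (0.77). Of these, CFLAR-AS1 and AC007283.5 were also called higher and IMPDH1P10 was not called. The part of these overlaps in the CFLAR counts was not tested. KLF6 was lower, at 19.8 ± 1.73 CPM in control and 10.3 ± 1.93 CPM in 25(OH)D (-0.94, adjusted p = 2.60e-05, edgeR), and IER3, an early response gene, was lower by a smaller step (-0.38, adjusted p = 0.00135, edgeR). Of the 1356 exon bases of IER3, 359 (26.5%) are shared on the opposite strand with XXbac-BPG252P9.10, which was also lower (-0.45, adjusted p = 0.00266, edgeR), and the part of this overlap in the IER3 counts was not tested. SLC2A6 (2.43), NUAK2 (-0.68) and TNFAIP2 (-1.36) were the remaining called targets, named after their values were seen. SLC2A6 had 18, 2 and 0 counts in control and 30, 38 and 30 in 25(OH)D. It thus passed the low-count filter only through the 25(OH)D libraries, and its place among the 2 higher targets depends on that.

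**Figure D5:**
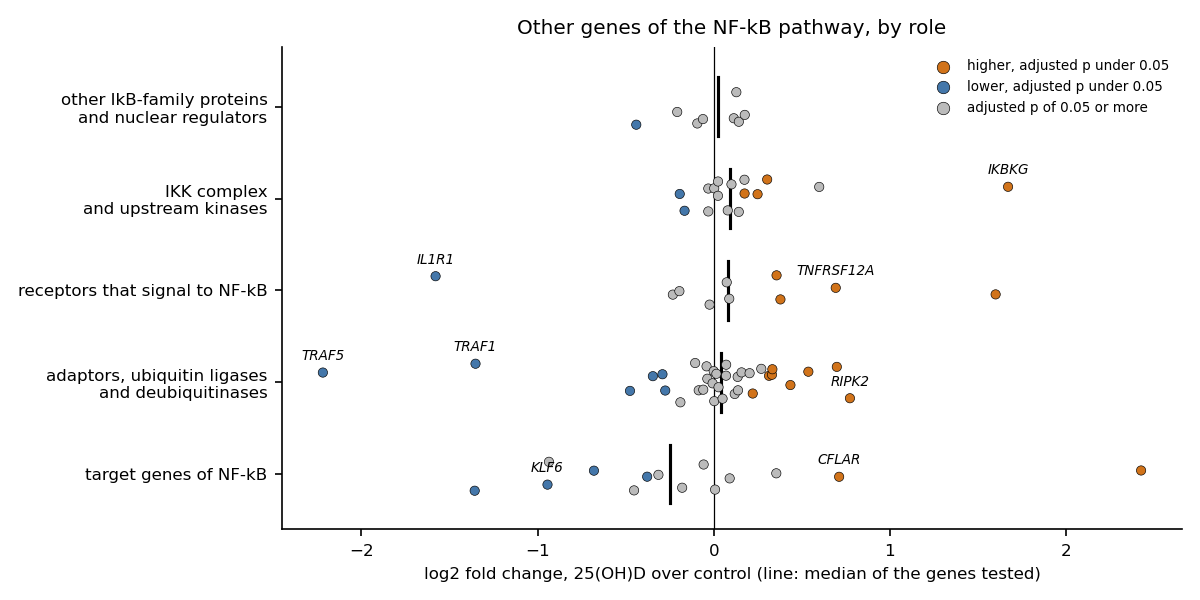
Log2 fold change (25(OH)D over control) of the 82 tested pathway genes by role, coloured by the edgeR call, with a line at the median of each list. IL1R1 lies at -1.58 and TRAF5 at -2.22, and most genes lie near 0.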

How the data were processed

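Messenger RNA of MDA-MB-453 cells was sequenced as paired reads from a stranded kit, with 3 libraries per group, and groups and replicate numbers were taken from the labels. The authors deposited a table of whole-number counts per gene without normalization and a table of RPKM values, which equal each count divided by gene length and library total. The submitters' processing notes name Trimmomatic 0.36, featureCounts of Subread 1.5.1, edgeR 3.12.1 and GRCh38; the aligner and the strand setting of the counting are not given in the sources used here. The libraries held 33268860 to 40928176 counts, and the floors of 3 counts cover counting error only, while the 95% intervals of the fold changes come from the edgeR fit and include the spread between libraries. Among counts from 1 to 20, 66.0% to 68.0% were even, and whether both mates of a pair were counted was not tested.

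Counts were tested in R 4.3.3 with edgeR 4.0.16 (TMM, low-count filter with a minimum count of 10, quasi-likelihood test, all 6 libraries, no covariates, two-sided), with Benjamini-Hochberg adjustment over the 18183 genes tested. The script was checked on simulated data. An exact permutation test of 3 libraries against 3 cannot go below p = 0.1. The paper's methods speak of biological replicates but the labels do not name separate cultures, so p-values measure the spread between these libraries. Alternatives were DESeq2 1.42.0 (test and size factors), upper-quartile factors, library totals, no filter, limma 3.58.1 on log2(RPKM + 1) and log2(RPKM + 0.1), a replicate block and each library left out. Shared exon bases came from GENCODE 29.

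The members, the lists and the tests were chosen with earlier results of these data known. All 10 members are named. In each of the 5 pathway lists, up to 2 genes per direction with the smallest p are named, among those with an adjusted p under 0.05 and at least 50 counts on average in whichever group was higher, with VDR and TRPV6 as a check of the treatment. CYP24A1 was not analysed here. Some results that the rule covers are not reported here.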

Additional observations from a re-analysis of the deposited data

How the results depend on the processing

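NFKBIA, NFKB2 and NFKBIB were called higher in every fit run at an adjusted p under 0.05, with log2 fold changes of 2.15 to 2.30, 0.46 to 0.63 and 0.43 to 0.61. REL was lost with upper-quartile factors (adjusted p = 0.0689, edgeR), library totals (0.0714) and limma on RPKM (0.185 and 0.207, where its log2 fold change was 0.12 with a pseudocount of 1). With that pseudocount, which shrinks changes of low genes, TRAF5 was at -1.20 and TRAF1 at -0.39, both still called. IKBKE was lost in 3 of the 6 fits that leave out a library, so the count of members lower ranged from 0 to 1 in them. With the fold change limits in place of the adjusted p, 1 member was higher and 0 were lower, 3 pathway genes were higher and 4 lower, and 731 of all genes were higher and 478 lower, because fewer genes reach a log2 change of 1. At an unadjusted p under 0.05 alone, 1 member was lower (IKBKE), with no share over all genes to set beside it. DESeq2 at an adjusted p under 0.05 also gave 1 member lower, against 2841 of all 18183 genes. The sign of 3 uncalled members turned when a library was left out, with ranges of -0.10 to 0.015 for RELA, -0.25 to 0.055 for RELB and -0.30 to 0.010 for TNFAIP3. Other scalings moved the median log2 fold change of all genes to between -0.055 and -0.0050.

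Same-numbered libraries did not visibly deviate together (correlations of -0.145, 0.0201 and -0.0921 for replicates 1, 2 and 3). Libraries of different numbers had correlations of -0.0541 to 0.141. With deviations taken from means of 3 libraries, these values cannot decide whether the numbers mark a shared batch, and the labels do not say. With the replicate block 3 members were higher and 1 lower, 19 pathway genes were higher and 14 lower, and 3057 of all genes were higher and 2896 lower. REL had a log2 fold change of 0.42 and an adjusted p of 0.0757 in edgeR with the block. At 8 to 22 counts a library, depth limits what can be said of RELB and TNFAIP3.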
